A study of Homo sapiens with 11 samples.

Results

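The 10 antigen processing genes described here lie outside the major histocompatibility complex (MHC) and were followed in MOLM-13 cells, a human acute myeloid leukemia line with a rearranged KMT2A gene. They were taken by gene symbol from the count table: CIITA, CD74, IFI30, CTSS, LGMN, CD86, B2M, NLRC5, ERAP1 and ERAP2, which is 10 of 38557 annotated genes. HLA genes were left out because their exons lie on several contigs of the genome build and lose counts there. RNA was sequenced from 3 groups after 72 h. The 4 DMSO libraries received the solvent, the 4 MI-503 libraries received this Menin inhibitor at 1 µM, and the 3 libraries called the combination here (numbered 1, 2 and 4) received the same dose together with the PSMB8 (immunoproteasome) inhibitor PR-957 at 100 nM. The libraries analysed here hold no group with PR-957 alone, so PR-957 is seen only on top of MI-503, and all 11 libraries came from 1 cell line. The labels do not say that replicates were separate cultures, so the p-values measure only the spread between these libraries, which may be technical.

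Antigen-presenting cells show peptides to T cells on 2 kinds of MHC molecule. For class II, the invariant chain CD74 guides new molecules into endosomes, where thiol reductase and proteases unfold and cut both antigens and CD74, and the coactivator CIITA switches the genes of this route on. For class I, peptides made in the cytosol are trimmed in the endoplasmic reticulum and bound by heavy chains paired with beta-2 microglobulin (B2M), and NLRC5 is the coactivator of that set. Interferon gamma is the classical inducer of both coactivators.

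The promoters are shown as background, because several of the 10 genes are textbook targets of factors that bind short motifs near the start. RefSeq promoter entries (GRCh38.p14) matched 6 of the 10 genes, and CIITA, CTSS, LGMN and NLRC5 had none. Windows ran from 250 to 27 bases before the RefSeq start, 224 bases each, so that none reached an exon of the deposited annotation, and ERAP1 and ERAP2 were left out because theirs did. Capitals mark a CCAAT box (CCAAT), the Y box (CTGATTGG, which holds a reversed CCAAT box) or an interferon-stimulated response core (GAAANNGAA), on either strand. All are written 5′ to 3′ along the gene's strand.
CD74, chr5:150412937-150413160, minus strand: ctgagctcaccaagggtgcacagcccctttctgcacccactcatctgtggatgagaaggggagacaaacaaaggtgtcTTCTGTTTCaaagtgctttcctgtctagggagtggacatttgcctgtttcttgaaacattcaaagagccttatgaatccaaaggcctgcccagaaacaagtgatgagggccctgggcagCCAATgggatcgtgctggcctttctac
B2M, chr15:44711267-44711490, plus strand: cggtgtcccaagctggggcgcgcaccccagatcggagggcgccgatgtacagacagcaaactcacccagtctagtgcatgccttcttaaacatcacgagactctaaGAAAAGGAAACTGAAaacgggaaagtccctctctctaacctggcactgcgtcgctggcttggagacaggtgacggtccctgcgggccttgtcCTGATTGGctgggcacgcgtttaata
IFI30, chr19:18173563-18173786, plus strand: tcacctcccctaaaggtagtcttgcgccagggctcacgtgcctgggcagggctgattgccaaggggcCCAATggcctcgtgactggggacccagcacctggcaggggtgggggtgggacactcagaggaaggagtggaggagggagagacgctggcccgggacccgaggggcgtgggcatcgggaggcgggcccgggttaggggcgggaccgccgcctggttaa

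The CD74 window held 1 CCAAT box and 1 interferon-stimulated core, the B2M window held 1 Y box and 2 overlapping interferon-stimulated cores, and the IFI30 window held 1 CCAAT box. Among 35116 RefSeq windows of the same length, 30.2% held a CCAAT box, 3.55% the Y box and 6.1% the interferon-stimulated core. Neither of the 2 CD86 windows held any of these, and none of the windows of CD74, B2M, IFI30 or CD86 held the motif TTCNNNGAA, which was in 6.08% of all windows. The core GAGGAA of the myeloid factor PU.1 (not capitalised) was found at 2 places in 1 CD86 window, in 1 place in the IFI30 window and in 21.1% of all windows. A match is a run of letters and was not tested for binding.

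Libraries held between 18891243 and 41153974 counted fragments, and 14683 of 38557 genes passed the filter on low counts. Of the 10 genes, 9 passed it, and LGMN did not. All 8 markers of a myeloid line were detected, and their summed counts-per-million (CPM) level lay at 1720 to 1810 in DMSO, 2320 to 2450 in MI-503 and 2430 to 4700 in the combination. LYZ, the lysozyme of myeloid cells, averaged 95.2, 375 and 1640 CPM in the 3 groups. Its combination libraries were uneven, with the highest at 2510 CPM, so that mean does not describe each library. MPO averaged 114, 216 and 130 CPM and the receptor FLT3 324, 230 and 193 CPM. The part of such marker shifts in the results was not tested. Of the cells that are known to present antigen, B cell markers summed to 48.9 to 51.6, 33.6 to 34.3 and 24.1 to 27.8 CPM. Nearly all of this was PAX5, with MS4A1 at 0 in every library. Dendritic cell markers reached at most 0.669 CPM. Macrophage markers summed to 0.19 to 0.597 CPM in DMSO, 1.05 to 1.69 with MI-503 and 1.72 to 5.84 in the combination. Most of that was MARCO, with C1QB at 0 in every library. T cell markers reached at most 0.184 CPM, with CD2 at 0. Epithelial markers summed to 24.5 to 44.9 CPM, from KRT8 and KRT18, with EPCAM and CDH1 at most 0.0871 CPM. Combination replicate 1 stood apart: 31 of 10039 genes lay over 2-fold from the mean of the other combination libraries. The counts were 2 for replicate 2 and 10 for replicate 4, each against a mean that holds replicate 1. For the genes below that replicate 1 changed most, a value without it is also given. In bulk RNA, fewer cells with a transcript and less transcript per cell cannot be told apart.

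With MI-503, 7 of the 9 tested genes rose, none fell, and IFI30 and ERAP2 did not pass the test. Across all tested genes 22% were called higher and 29.3% lower in this comparison at an edgeR adjusted p under 0.05, and the median log2 fold change was 0.33 over the 9 genes against -0.0284 over all tested genes. The count lower was also 0 at an unadjusted p under 0.05 (4679 of 14683 over all tested genes) and by DESeq2 (3735 of 17458). Scaling by upper quartiles moved the share of calls that were higher over all genes from 42.9% to 54.2%. In the combination against the same DMSO libraries 5 genes rose, CD74 fell and 3 did not pass the test, where 31.7% of all tested genes were called higher and 32.8% lower, with medians of 0.147 and 0.0128. Since both comparisons use the DMSO libraries, the combination was also set against MI-503, where 2 genes were higher (IFI30 and CTSS), 4 were lower (CIITA, CD74, B2M and ERAP1) and 3 did not pass, against 23.6% higher and 23.8% lower of all tested genes and medians of -0.122 and 0.00406. DESeq2 called 1 higher and 5 lower there, beside 2887 higher and 3609 lower of the 16938 genes it tested.

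**Figure D1:**
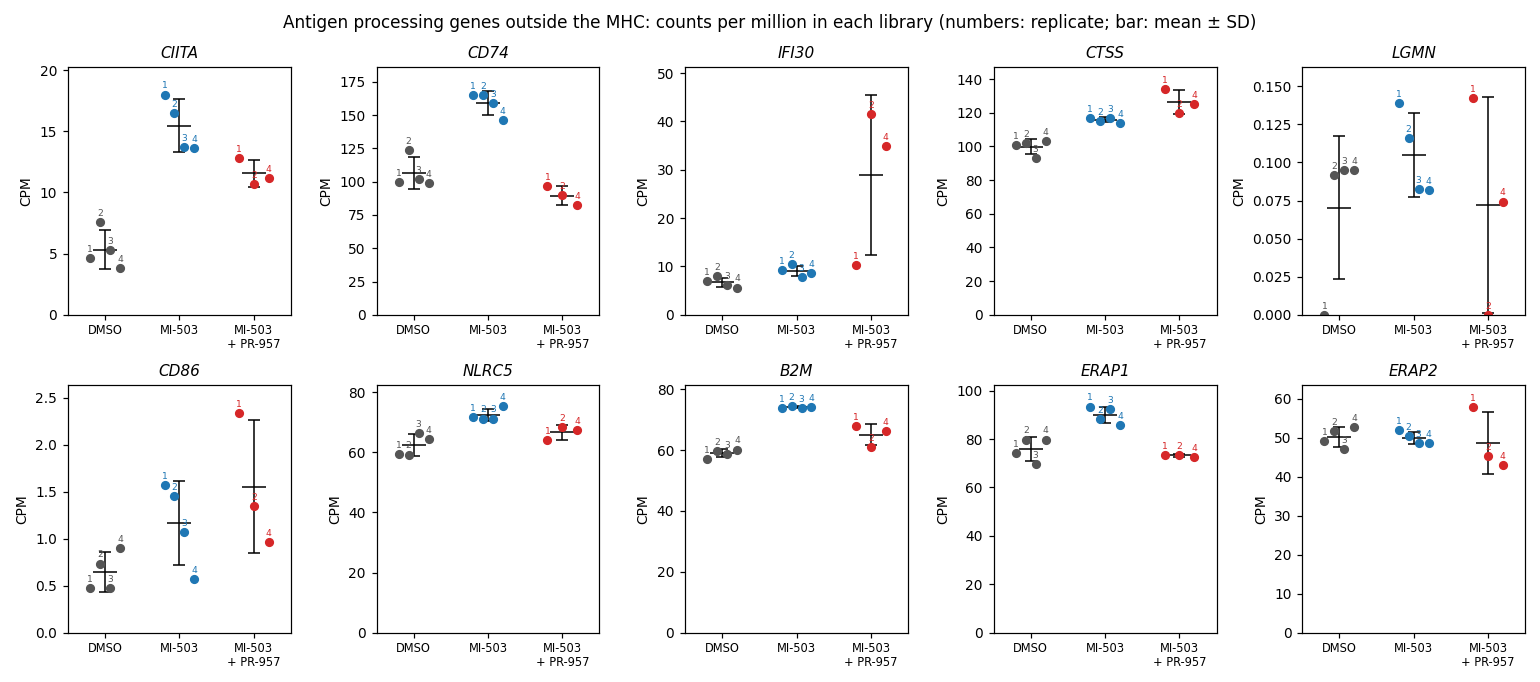
Each panel plots 1 gene, with CPM on the vertical axis and the 3 groups on the horizontal axis. Points are libraries with their replicate numbers, and the bar gives the mean and SD. CIITA separated DMSO (3.79 to 7.58 CPM) from both treated groups, CD74 was highest with MI-503, and IFI30 was high in combination replicates 2 and 4 only.

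CIITA, the master coactivator of class II genes, showed the largest rise with MI-503 among the 9 genes tested. It is annotated on hg38 at chr16:10866208-10941562, plus strand, and 3.37% of its exon bases are shared with DEXI. Its levels were 4.66, 7.58, 5.31 and 3.79 CPM in DMSO replicates 1 to 4, then 18, 16.5, 13.7 and 13.6 CPM in MI-503 replicates 1 to 4, and 12.8, 10.7 and 11.2 CPM in combination replicates 1, 2 and 4. All 3 groups were separate, with MI-503 highest and DMSO lowest. The mean went from 5.33 ± 1.62 CPM (SD, n = 4) to 15.4 ± 2.18 CPM (n = 4) with MI-503, or 2.9-fold (log2 1.54, SE 0.153, edgeR adjusted p = 3.55e-07). In the combination it was 11.6 ± 1.09 CPM (n = 3), 2.19-fold above DMSO (log2 1.13, SE 0.164, edgeR adjusted p = 1.1e-05). Against MI-503 it fell by 0.406 on the log2 scale (SE 0.149, edgeR adjusted p = 0.0328), a call that was lost without MI-503 replicate 1 (0.103), MI-503 replicate 2 (0.0852) or combination replicate 2 (0.0745), within a range of adjusted p from 0.000252 to 0.103 over 17 alternatives.

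CIITA has no DNA-binding domain that reads the promoter and acts through RFX, NF-Y and CREB factors already bound there. Of the 7 factors listed, all were tested, and 0 rose in any of the 3 comparisons by edgeR, by an unadjusted p under 0.05 or by DESeq2. The lower calls were 3, 4 and 2 of 7, beside 29.3%, 32.8% and 23.8% of all tested genes, and 22%, 31.7% and 23.6% of those were called higher, so with 7 genes these counts are not read as a difference from the background. With MI-503, RFXAP, NFYA and NFYC fell. NFYC changed by -0.336 (edgeR adjusted p = 6.45e-05) and RFXAP by -0.253 (0.00761), while the call of NFYA (-0.14, 0.033) was ended by 13 of 17 alternatives, RLE (0.0911) and upper-quartile factors (0.219) among them. In the combination RFXAP, NFYA, NFYB and NFYC were below DMSO, and RFXAP and NFYB were also below MI-503. RFXAP, the RFX subunit, lay at 15.5 to 18.8 CPM in DMSO, 13.9 to 14.8 with MI-503 and 10.4 to 11.8 in the combination, so its groups did not overlap. NFYB, a histone-fold subunit of NF-Y, was at 47.3 to 50.5 CPM in DMSO and 29.8 to 31.8 CPM in the combination, a fall of 0.666 on the log2 scale (SE 0.0545, edgeR adjusted p = 1.18e-08). The other RFX subunits, RFX5 and RFXANK, did not pass the test in any comparison, with fold changes of -0.0479 and -0.0165 (log2) with MI-503 and means of 119 and 71 CPM in DMSO. Over the list the median was -0.12 with MI-503, -0.245 in the combination and -0.0642 between them.

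The genes whose levels followed CIITA most closely over the 11 libraries, among 10031 genes compared on log2 CPM, were LIMD2 (Pearson r = 0.982), COL23A1 (r = 0.981) and RIN3 (r = 0.981). RIN3 averaged 10.7 CPM in DMSO, 20.4 with MI-503 and 17 in the combination. These coefficients describe 3 groups of libraries more than 11 independent points.

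CD74, the invariant chain, moved up with MI-503 and down when PR-957 was added. It is annotated at chr5:150400041-150412936, minus strand, and 6.56% of its exon bases are shared with TCOF1, so fragments there were left out of the counts. DMSO replicates 1 to 4 had 100, 124, 102 and 98.8 CPM, MI-503 replicates 1 to 4 had 165, 165, 159 and 146 CPM, and combination replicates 1, 2 and 4 had 96.6, 89.6 and 82.3 CPM. Every MI-503 library lay above every DMSO library, and every combination library lay below both groups. MI-503 raised CD74 by 0.58 on the log2 scale (SE 0.0684, edgeR adjusted p = 2.37e-06), from 106 ± 11.9 to 159 ± 8.96 CPM (SD, n = 4 each). The combination stood at 89.5 ± 7.16 CPM (n = 3), 1.77-fold below MI-503 (log2 -0.825, SE 0.0749, edgeR adjusted p = 1.78e-07). Against DMSO the difference was smaller, -0.245 (SE 0.0749, edgeR adjusted p = 0.00865), and with upper-quartile factors it did not pass the test (-0.176, adjusted p = 0.0614), within a range of -0.29 to -0.164 over 17 alternatives.

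CIITA and CD74, an activator and a textbook target of it, had different orders of the groups: CIITA in the combination was above DMSO in 3 of 3 libraries, and CD74 was below DMSO in 3 of 3. MARCHF1, the ubiquitin ligase that removes class II and CD86 from the surface, averaged 12 CPM in DMSO, 12.1 with MI-503 and 9.55 in the combination. Its combination libraries held 11.6, 8.42 and 8.62 CPM, and the first of these lies inside the DMSO range of 11.2 to 13.9 CPM. It was called lower in the combination than in DMSO (log2 -0.301, edgeR adjusted p = 0.0347) and than in MI-503 (-0.323, 0.0316), and 5 alternatives ended each call, among them leaving out combination replicate 2 (0.132 and 0.0785) or 4 (0.127 and 0.0704). Without combination replicate 1 the differences were -0.465 (0.000775) and -0.534 (0.00027). The genes closest to CD74 over the libraries were ELOVL6 (r = 0.988), LITAF (r = 0.982) and the integrin subunit ITGA4 (r = 0.98). ITGA4 averaged 101 CPM in DMSO, 144 with MI-503 and 81.7 in the combination.

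IFI30, the endosomal thiol reductase GILT that opens disulfide bonds of antigens, showed the largest rise in the combination among the 9 genes tested. The rise was much smaller in 1 combination library. The gene lies at chr19:18173813-18178117, plus strand, on 988 exon bases shared with no other gene. The DMSO libraries had 7.05, 7.94, 6.16 and 5.64 CPM, the MI-503 libraries 9.25, 10.5, 7.88 and 8.63 CPM, and combination replicates 1, 2 and 4 had 10.3, 41.5 and 35 CPM. Replicates 2 and 4 were far above all other libraries. Replicate 1 was above every DMSO library but within the MI-503 range, at 0.269 of the mean of the other 2 libraries. The fold change against DMSO was 2.07 (log2, SE 0.317, edgeR adjusted p = 2.02e-05), and 2.52 (1.6e-15) without replicate 1. Against MI-503 it was 1.63 (SE 0.303, edgeR adjusted p = 3e-04), and 2.03 (1.16e-13) without that library.

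MI-503 against DMSO gave IFI30 a log2 fold change of 0.439 (95% interval -0.247 to 1.12, edgeR adjusted p = 0.276), with overlapping libraries. All groups share 1 estimate of the spread, and without combination replicate 1 the same comparison gave 0.486 and was called (0.000489). Without the filter on low counts it was also called (0.458, 1.84e-05).

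CTSS, the cysteine protease cathepsin S that makes the last cuts in CD74, rose with MI-503 and was highest in the combination. It is annotated at chr1:150730188-150765778, minus strand. Its levels were 101, 102, 93.2 and 103 CPM in DMSO, 117, 115, 117 and 114 CPM with MI-503, and 134, 120 and 125 CPM in the combination. The 3 groups did not overlap. MI-503 raised it by 0.213 (log2, SE 0.0443, edgeR adjusted p = 0.000664) and the combination by 0.34 over DMSO (SE 0.0474, edgeR adjusted p = 7.21e-06). The step from MI-503 to the combination was 0.126 (SE 0.0472, edgeR adjusted p = 0.0358), and 11 of 17 alternatives ended that call, with adjusted p between 0.0516 and 0.336. Without combination replicate 1 the step was 0.0551 (0.336).

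LGMN, the asparagine endopeptidase legumain, had few counts in any library. The files hold 0, 2, 2 and 2 counts in DMSO, 3, 4, 2 and 2 in MI-503 and 6, 0 and 2 in the combination for this gene at chr14:92703809-92748627, minus strand. These sums of 6, 11 and 8 counts per group lie too low for a test, and no library reached the filter level of 0.413 CPM. A difference was not detectable at this depth.

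Other endosomal genes were taken from a list of 10 proteases, inhibitors and turnover factors, of which 9 were tested. With MI-503, CTSD, CTSL, CTSZ and CST3 rose, SPPL2A fell and 4 did not pass the test, with a median of 0.214. The call of SPPL2A was ended by upper-quartile factors (0.0741) and by no filter (0.058), and CTSB (0.214, edgeR adjusted p = 0.0613) was called higher in 8 of 17 alternatives. In the combination against DMSO, 5 rose (CTSB, CTSD, CTSL, CTSZ and CST3) and 2 fell (CTSH and MARCHF1), with a median of 0.364. Of all tested genes, 22% were called higher and 29.3% lower with MI-503, and 31.7% and 32.8% in the combination against DMSO. Between the combination and MI-503, CTSB, CTSD, CTSL and SPPL2A were higher, and CTSH, CST3 and MARCHF1 lower (background 23.6% and 23.8%). Of these, 9 of 17 alternatives ended the call of SPPL2A (adjusted p up to 0.344, without combination replicate 2) and 7 that of CTSH (up to 0.117, without combination replicate 4).

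Cathepsin D (CTSD), the main aspartic protease of lysosomes, had 92.2, 91.3, 92.9 and 88.9 CPM in DMSO, 144, 145, 151 and 144 CPM with MI-503 and 378, 627 and 625 CPM in the combination. As with IFI30, combination replicate 1 was the lowest of its group, but for CTSD it lay above every MI-503 library. The rise was 5.94-fold over DMSO (log2 2.57, SE 0.119, edgeR adjusted p = 1.52e-11) and 3.72-fold over MI-503 (log2 1.9, SE 0.116, edgeR adjusted p = 1.43e-09). Without combination replicate 1 these were 2.8 and 2.08 on the log2 scale. Cystatin C (CST3), a secreted inhibitor of cysteine cathepsins, took another course, with 139, 140, 145 and 130 CPM in DMSO, 308, 310, 310 and 299 CPM with MI-503 and 168, 192 and 219 CPM in the combination. Its groups were separate, with MI-503 highest. It was 2.22-fold above DMSO with MI-503 (log2 1.15, SE 0.062, edgeR adjusted p = 2.86e-10) and 1.59-fold lower in the combination than with MI-503 (log2 -0.673, edgeR adjusted p = 4.74e-07). Cathepsin L (CTSL), a cysteine protease, averaged 5.17, 8.29 and 12.9 CPM in the 3 groups and was called higher in each comparison.

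**Figure D2:**
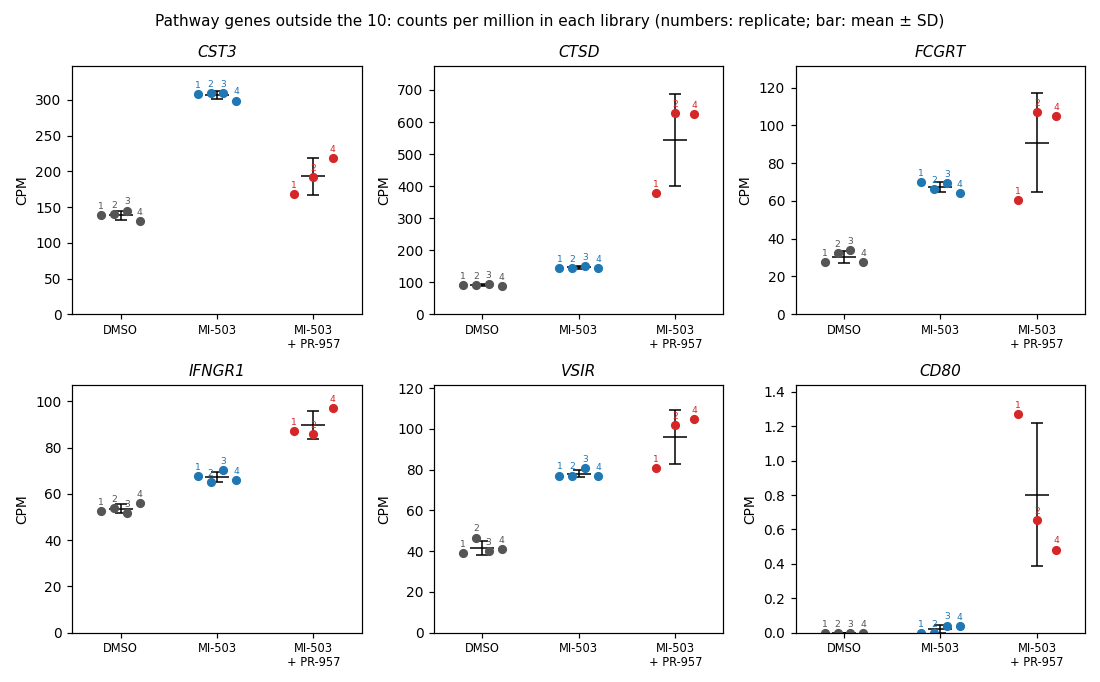
CPM of 6 pathway genes (vertical axis) by group (horizontal axis), with 1 point per library, its replicate number and the mean with SD. CST3 peaked with MI-503, and CTSD, FCGRT and VSIR were lower in combination replicate 1 than in replicates 2 and 4. CD80 had counts in all 3 combination libraries and 0 in all DMSO libraries.

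CD86, the costimulatory ligand that T cells read through CD28, was expressed at a level close to the filter. It lies at chr3:122055362-122121143, plus strand. The libraries held 14, 16, 10 and 19 counts in DMSO, 34, 50, 26 and 14 with MI-503 and 99, 27 and 26 in the combination, or 0.472, 0.735, 0.474 and 0.901 CPM, 1.57, 1.45, 1.07 and 0.573 CPM, and 2.34, 1.35 and 0.967 CPM. MI-503 replicate 4 lay inside the DMSO range, and all 3 combination libraries were above DMSO. The combination was 2.55-fold above DMSO (log2 1.35, SE 0.357, edgeR adjusted p = 0.00321), and 0.861 on the log2 scale (0.0432) without replicate 1, which was at 2.01 times the mean of the other 2 libraries.

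MI-503 against DMSO gave CD86 0.886 (log2, SE 0.359, edgeR adjusted p = 0.0486), just past the threshold. Leaving out DMSO replicate 1 (0.146), 2 (0.0609) or 3 (0.12), or MI-503 replicate 1 (0.13), 2 (0.146) or 3 (0.0646), each ended the call. The combination and MI-503 differed by 0.465 (95% interval -0.205 to 1.14, edgeR adjusted p = 0.244), and by -0.0748 (0.868) without combination replicate 1.

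CD80, the other ligand of CD28, passed the filter only through the combination. It had 0 counts in all 4 DMSO libraries, 0, 0, 1 and 1 with MI-503 and 54, 13 and 13 in the combination. With the DMSO group set at a floor of 3 counts in all (0.0321 CPM), the combination (0.896 CPM pooled) was at least 28-fold higher, for counting error only. Of the 80 counts, 54 came from combination replicate 1, and without it the remaining 26 counts (0.555 CPM pooled) were at least 17.3-fold higher than the same floor. CD80 is left out of the calls below, since it entered the tested genes through the group where it was high. Of its exon bases 29.2% are shared with TIMMDC1.

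Of 12 further costimulators and checkpoint ligands, 9 were tested. The shares of all tested genes called higher and lower were 22% and 29.3% with MI-503. They were 31.7% and 32.8% in the combination against DMSO, and 23.6% and 23.8% against MI-503. VSIR and TNFSF9 rose and CD276 and ICOSLG fell with MI-503, though 8 alternatives ended the call of CD276 and 11 that of ICOSLG. DESeq2 called 4 of the 12 higher and 0 lower with MI-503, beside 3302 higher and 3735 lower of the 17458 genes it tested. In the combination VSIR, ICAM1 and TNFSF9 were above DMSO and ICOSLG below. Against MI-503, VSIR, ICAM1, TNFSF9 and CD276 were higher in the combination and ICOSLG lower, and CD276 did not pass without combination replicate 1 (0.396, adjusted p = 0.331). VSIR, the checkpoint ligand VISTA, held 38.9, 46.7, 40.1 and 40.9 CPM in DMSO, 77.1, 77.1, 80.6 and 77 CPM with MI-503 and 80.9, 102 and 105 CPM in the combination. DMSO was separate from both treated groups, and the fold changes were 0.906 with MI-503 (log2, edgeR adjusted p = 4.03e-08) and 1.2 in the combination (7.36e-10). Its difference between combination and MI-503 (0.298, 0.00379) did not pass without combination replicate 2 (0.0609) or 4 (0.0657), and was 0.388 (2.88e-06) without replicate 1. TNFSF9, the ligand of 4-1BB, averaged 30.3, 34.8 and 54.9 CPM and was higher in the combination than with MI-503 by 0.658 (log2, edgeR adjusted p = 3.17e-08). ICAM1, an adhesion ligand of T cells, was higher there by 0.396 (edgeR adjusted p = 1.07e-05). The median of the 9 genes was 0.109 with MI-503, 0.201 in the combination against DMSO and 0.298 between the treated groups.

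Of the 4 class I genes, NLRC5, B2M and ERAP1 rose with MI-503, and no fitted change of the 4 was larger than 0.33 on the log2 scale in any comparison. NLRC5, the class I coactivator at chr16:56989547-57083524, plus strand, had 59.5, 59.2, 66.4 and 64.4 CPM in DMSO, 71.8, 71.2, 71.2 and 75.3 CPM with MI-503 and 63.9, 68.5 and 67.4 CPM in the combination. MI-503 lay above all other libraries, and the combination overlapped DMSO. The rise with MI-503 was 0.216 (log2, SE 0.0465, edgeR adjusted p = 0.000899). The combination differed from DMSO by 0.0941 (95% interval -0.0118 to 0.2, edgeR adjusted p = 0.11) and from MI-503 by -0.122 (-0.227 to -0.0166, 0.0536). Both lie near the threshold: 4 of 17 alternatives called the first (upper-quartile factors at 0.00846, and 0.0199 without combination replicate 1 among them) and 7 of 17 the second, with adjusted p from 0.0213 to 0.0499.

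B2M, the light chain of every class I molecule, was higher in every MI-503 library than in any DMSO library. It is annotated at chr15:44711492-44718877, plus strand, and on an alternate contig. The levels were 57.1, 59.6, 58.8 and 60.2 CPM in DMSO, 73.7, 74.4, 73.9 and 74.2 CPM with MI-503 and 67.8, 61.1 and 66.4 CPM in the combination. The groups did not overlap, with the combination between DMSO and MI-503. B2M rose by 0.33 with MI-503 (log2, SE 0.0418, edgeR adjusted p = 5.17e-06), was 0.147 above DMSO in the combination (SE 0.0451, edgeR adjusted p = 0.00865), and was 0.183 below MI-503 there (log2 -0.183, SE 0.0446, edgeR adjusted p = 0.00284). Of 3379 windows of 100 bases along its chr15 exons, 86.4% recur on the alternate contig. Fragments that map to both places were left out by the authors' counting, and how much was lost was not tested.

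ERAP1 and ERAP2 are neighbouring aminopeptidases that trim peptides in the endoplasmic reticulum. ERAP1 was called in 2 of the 3 comparisons and ERAP2 in none with all libraries in. ERAP1 (chr5:96760273-96935983, minus strand) held 74.2, 79.8, 69.7 and 79.8 CPM in DMSO, 93.4, 88.2, 92.2 and 85.9 CPM with MI-503 and 73.4, 73.5 and 72.7 CPM in the combination. MI-503 was above all other libraries, and the combination lay inside the DMSO range. It rose by 0.245 with MI-503 (log2, SE 0.0475, edgeR adjusted p = 0.000354) and was 1.23-fold lower in the combination than with MI-503 (log2 -0.297, SE 0.0512, edgeR adjusted p = 0.000153). Against DMSO the combination gave -0.051 (95% interval -0.16 to 0.0577, edgeR adjusted p = 0.401). Of its exon bases 17.4% are shared with LNPEP, CAST and a further locus, and fragments there were not counted.

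ERAP2 (chr5:96875939-96919716, plus strand) held 49.1, 51.7, 47.2 and 52.7 CPM in DMSO, 51.9, 50.5, 48.7 and 48.6 CPM with MI-503 and 57.9, 45.3 and 43 CPM in the combination. DMSO and MI-503 overlapped, and the combination libraries fell on both sides of them. MI-503 against DMSO was -0.00618 (95% interval -0.163 to 0.15, edgeR adjusted p = 0.954), and the combination differed by -0.032 from DMSO and by -0.0258 from MI-503 (0.744 and 0.816). Without combination replicate 1 both were called lower, at -0.167 (0.0115) and -0.206 (0.00341). LNPEP, the third aminopeptidase of this cluster, averaged 76.8, 87.1 and 79 CPM in the 3 groups. It rose with MI-503 (0.182, edgeR adjusted p = 0.00171) and was lower in the combination than with MI-503 (-0.139, 0.0182), a call that was lost with no filter (0.0671) and without MI-503 replicate 1 (0.0516) or 4 (0.0545).

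**Figure D3:**
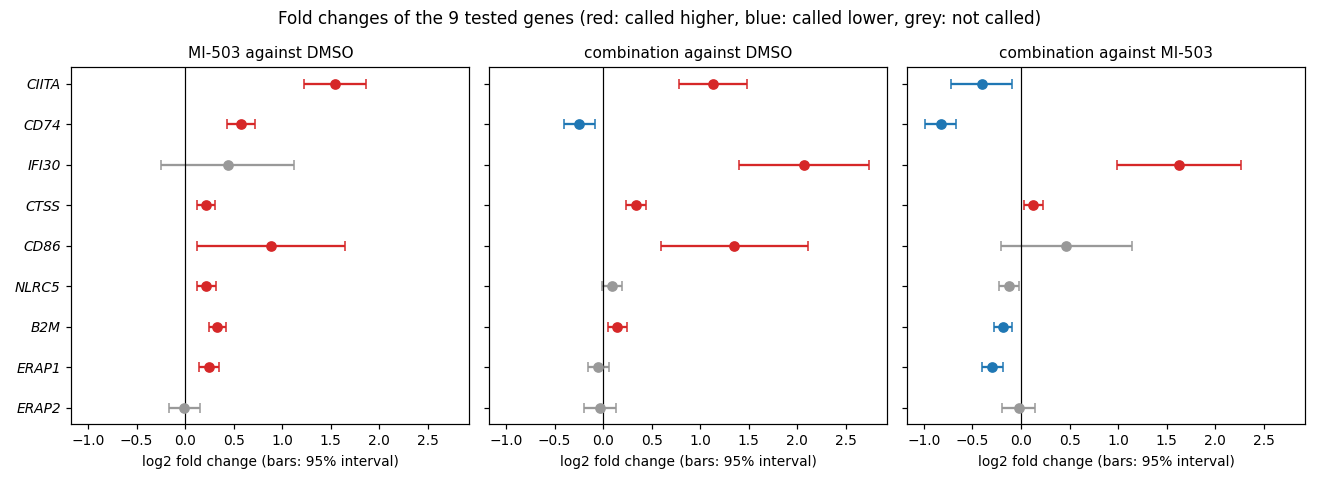
Log2 fold change (horizontal axis) of the 9 tested genes (vertical axis) in the 3 comparisons, with 95% intervals. Red points were called higher, blue lower and grey not called. CD74 was called higher with MI-503 (0.58) and lower in the combination against both other groups, and ERAP2 was near 0 in all 3 panels.

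Of 9 genes for class I peptide supply and folding, TAPBPL and LNPEP rose with MI-503 and CALR, THOP1 and UGGT1 fell, the last of which was not called with upper-quartile factors (0.0647). In the combination against DMSO, TAPBPL, CANX and NRDC rose and PDIA3, THOP1 and TPP2 fell. Against MI-503, CALR, CANX and NRDC were higher in the combination and LNPEP, THOP1 and TPP2 lower. PDIA3 against DMSO was not called with upper-quartile factors (0.171), no filter (0.104) or the stricter filter (0.0553). Without combination replicate 1, PDIA3 against DMSO (0.119) and CANX against MI-503 (0.0626) did not pass, nor did CANX (0.0644) and CALR (0.0769) against MI-503 without combination replicate 4. THOP1, a cytosolic oligopeptidase that degrades antigenic peptides, averaged 260, 200 and 168 CPM, and its libraries in the 3 groups did not overlap. Its log2 fold change was -0.375 with MI-503 and -0.625 in the combination (edgeR adjusted p = 1.1e-06 and 2.56e-09). NRDC, another cytosolic peptidase, was higher in the combination than with MI-503 by 0.489 (log2, edgeR adjusted p = 1.66e-07) and did not pass the test with MI-503 (-0.0745, 0.148). CALR, the chaperone calreticulin, fell by 0.421 with MI-503 (log2, edgeR adjusted p = 2.81e-05). The list's medians were -0.0745, -0.0518 and 0.097. Background shares of all tested genes called higher and lower were 22% and 29.3%, 31.7% and 32.8%, and 23.6% and 23.8% in the same order.

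Of 7 MHC-like molecules, 3 were tested, and FCGRT, MR1 and CD1D were higher than DMSO in both treated groups. Of all tested genes, 22% were called higher than DMSO with MI-503 and 31.7% in the combination. Against MI-503, MR1 and FCGRT were higher in the combination, beside 23.6% of all tested genes. With 3 genes these counts are not read as a difference from the background. By DESeq2, 1 of the 7 was lower in the combination than in DMSO, and 1 was lower than in MI-503. Over all genes it tested, 4627 of 19538 and 3609 of 16938 were lower. FCGRT, the neonatal Fc receptor that pairs with B2M, held 27.6, 32.2, 33.8 and 27.8 CPM in DMSO, 70, 66.1, 69.4 and 64.4 CPM with MI-503 and 60.7, 107 and 105 CPM in the combination. DMSO was lowest throughout, and combination replicate 1 lay below MI-503 while replicates 2 and 4 lay above it. The fold changes were 1.15 with MI-503 (log2, SE 0.135, edgeR adjusted p = 2.18e-06) and 1.57 in the combination (SE 0.142, edgeR adjusted p = 3.71e-08). The difference between them (0.421, 0.0167) was not called by DESeq2 (0.078) or without combination replicate 2 (0.177) or 4 (0.151), and was 0.628 (6.63e-09) without combination replicate 1. MR1, which shows vitamin B metabolites to T cells, averaged 38.6, 46 and 55.7 CPM. CD1D, which shows lipids, averaged 16.3, 26.6 and 23.6 CPM.

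Of 9 genes of the interferon gamma pathway, the receptor chains IFNGR1 and IFNGR2 and the kinases JAK1 and JAK2 were higher than DMSO with MI-503 and in the combination. IRF1, a target of the pathway, fell in both, and SOCS1, its inhibitor, was called lower in the combination (-0.295, edgeR adjusted p = 0.0441), a call that 11 of 17 alternatives ended. Against MI-503, IFNGR1 and JAK2 were higher in the combination and SOCS1 lower. That SOCS1 call (-0.364, edgeR adjusted p = 0.0204), with overlapping libraries, was lost without MI-503 replicate 3 (0.0638) or combination replicate 4 (0.0558). Leaving out DMSO replicate 4 or MI-503 replicate 3 ended the call of IFNGR2 with MI-503 (0.0701 and 0.0833), and upper-quartile factors or the stricter filter that of IRF1 (0.0853 and 0.0519). IFNGR1, the ligand-binding chain, lay at 51.6 to 56.1 CPM in DMSO, 65.1 to 70.4 with MI-503 and 85.8 to 96.9 in the combination. Those groups were separate, at log2 fold changes of 0.331 (edgeR adjusted p = 2.38e-05) and 0.749 (1.35e-09) over DMSO. JAK2 averaged 16.2, 20.5 and 25.6 CPM, and JAK1 rose by 0.291 with MI-503 (log2, edgeR adjusted p = 6.91e-06). IRF8 was not called in any comparison with all libraries in, at means of 545, 525 and 613 CPM. Its combination libraries held 493, 633 and 712 CPM. Without combination replicate 1 it was called higher than DMSO (0.322, edgeR adjusted p = 9.42e-05) and than MI-503 (0.333, 0.000107). In each of these comparisons 4 of 17 alternatives called it. For scale, 22% of all tested genes were called higher with MI-503, 31.7% in the combination against DMSO and 23.6% against MI-503. The shares called lower were 29.3%, 32.8% and 23.8%.

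**Figure D4:**
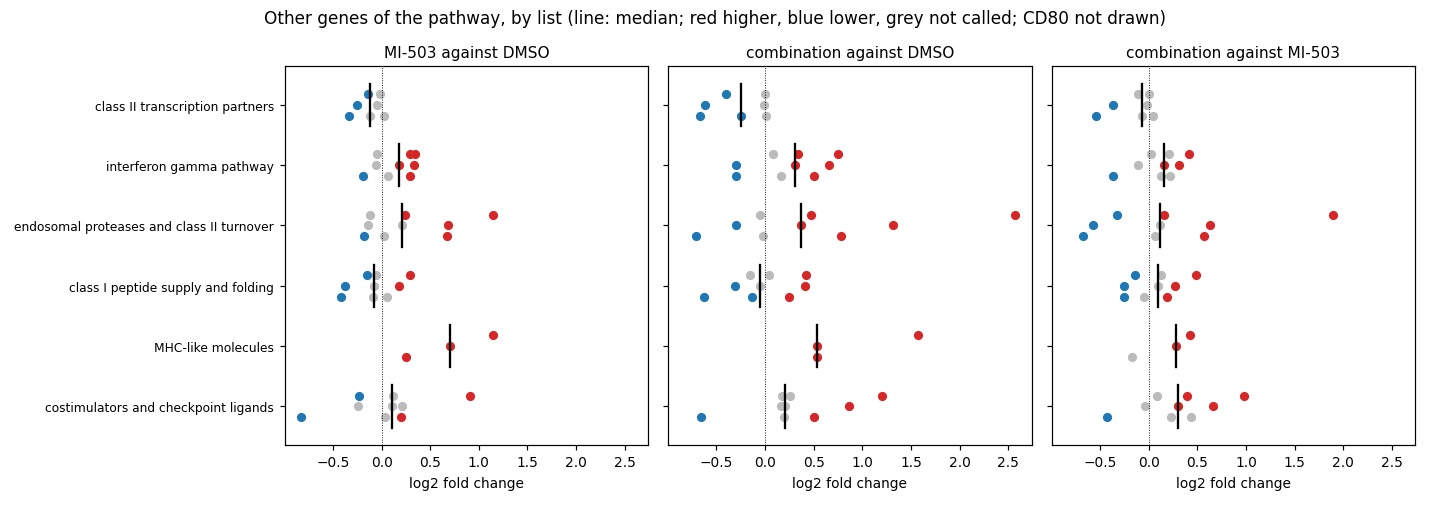
Log2 fold change (horizontal axis) of each tested list gene, by list (vertical axis), in the 3 comparisons. Lines are list medians without CD80, which is not drawn, and colors give the calls as red for higher, blue for lower and grey for not called. CTSD lies farthest to the right among the endosomal genes in the combination (2.57 over DMSO), and FCGRT among the MHC-like molecules (1.57).

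Over all 6 lists without CD80, 46 of 54 genes were tested. With MI-503, 16 were higher and 10 lower (background 22% and 29.3% of all tested genes), in the combination against DMSO 19 and 12 (31.7% and 32.8%), and against MI-503 16 and 10 (23.6% and 23.8%). The median log2 fold changes were 0.0305, 0.171 and 0.108. By DESeq2 the counts higher and lower over the 54 genes were 19 and 7, 21 and 13, and 13 and 10 in the same order. Over all genes tested by DESeq2 they were 3302 and 3735 of 17458, 4500 and 4627 of 19538, and 2887 and 3609 of 16938.

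Levels were compared between the 10 genes only per length, as CPM per kb of exon not shared with another gene. In DMSO, CD74 (27.9 ± 3.11) and CTSS (25.4 ± 1.17) were highest of the other 9, and their ranges of 25.9 to 32.5 and 23.7 to 26.3 overlapped. B2M had 11.4 ± 0.257 from the fragments that were counted, and its place in the order is uncertain because of those left out for its second contig. ERAP1 (8.5 ± 0.546), ERAP2 (8.38 ± 0.417), NLRC5 (8.05 ± 0.458) and IFI30 (6.78 ± 1.02) overlapped from one to the next. CIITA (0.278 ± 0.0843) and CD86 (0.221 ± 0.0719) overlapped at the low end, above LGMN (0.031 ± 0.0207; SD, n = 4 for each). CIITA's exons of all transcripts span 19867 bases, which lowers its value on this scale, and B2M's length counts exons on both contigs.

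The order at the top changed with treatment. With MI-503, CD74 (38.3 to 43.3 CPM per kb) lay above CTSS (29.1 to 29.8) in every library, and in the combination CTSS (30.5 to 34) lay above CD74 (21.6 to 25.3) in every library. IFI30 ranged from 10.4 to 42 CPM per kb in the combination, so replicates 2 and 4 reached the level of the top genes and replicate 1 did not. Over the 11 libraries, log2 CPM of CD74 and ERAP1 had a Pearson r of 0.921, and CIITA and B2M one of 0.881, while CD74 and CTSS had 0.00163. These coefficients share libraries and groups and are given without a test.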

How the data were processed

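MOLM-13 RNA had been made into TruSeq libraries and sequenced. The authors deposited raw counts of fragments per gene, 1 set per library, with no normalization. Per the file headers, featureCounts 2.0.1 counted fragments on RefSeq exons (hg38) in its unstranded mode, leaving out fragments that mapped to several places or to several genes. The submitters' processing notes name Trimmomatic 0.39 and STAR 2.7.10a, and the header paths name filtered alignments, with the filter not given in the sources used here. Exons on the opposite strand count as shared here, since strand was not used. Between the joined table and the single sets, 0 cells differed. Tables of the authors' own comparisons (log2 fold changes and p-values from DESeq2) were not used.

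Groups followed the labels. Tools were edgeR 4.0.16 (with limma 3.58.1) and DESeq2 1.42.0 under R 4.3.3, and pandas 2.3.3 under Python 3.11.15. Low genes were removed by filterByExpr of edgeR, set to a minimum count of 10, a minimum total of 15 and a large n of 10. A negative binomial model held the 11 libraries with 1 coefficient for each group and TMM factors. The test was edgeR's quasi-likelihood F test (two-sided), p-values were adjusted by Benjamini-Hochberg over 14683 genes, and calls needed an adjusted p under 0.05. CPM are relative to TMM-scaled totals and are given as mean ± SD. The common dispersion was 0.00378, with 8 residual degrees of freedom and 18891243 to 41153974 counts per library, so that low genes such as CD86 carry wide intervals. Alternatives were RLE and upper-quartile factors, no filter, a stricter filter (minimum count 30), DESeq2, a replicate block, an adjusted p under 0.01, and leaving out each library.

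The 10 genes and the 6 lists of pathway genes, none of which holds a gene of the MHC, were chosen with earlier results of these data known. Named genes were the 10, the 2 genes of each list with the smallest adjusted p in each comparison, partners of a member (RFX5, RFXAP and RFXANK, CD80, LNPEP, MARCHF1) and the 3 genes most like CIITA and most like CD74 by Pearson r among genes of at least 5 CPM. Other list genes were named where a count was 5 or fewer, and IRF8 for its spread in the combination, after their values were seen. The result of 1 list gene is not reported here.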

Additional observations from a re-analysis of the deposited data

Results flagged for a closer look

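Within groups of 4 libraries, 66 groups of values were examined for a library far from the other 3, of which chance flags about 1 in 20. Of these, 8 had one. CD74 was at 124 CPM in DMSO replicate 2 (98.8 to 102 in the others), and its MI-503 libraries still lay above it. LGMN was at 0 CPM in DMSO replicate 1, where the others had 2 counts each. NLRC5 was at 75.3 CPM in MI-503 replicate 4 (71.2 to 71.8 in the others). In MI-503 replicate 3, VSIR was at 80.6 CPM (77 to 77.1), CTSD at 151 CPM (144 to 145) and CD1D at 29.8 CPM (25.1 to 25.8). In DMSO replicate 3, JAK1 was at 92.8 CPM (97.3 to 97.4) and MARCHF1 at 13.9 CPM (11.2 to 11.4). Without DMSO replicate 3 MARCHF1 was no longer called in the combination against DMSO (adjusted p = 0.118).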

How the results depend on the processing

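No call of a member or list gene turned its direction under any alternative run. Members called lower in the combination against DMSO went from 1 to 0 with upper-quartile factors, and to between 1 and 2 when single libraries were left out, with ERAP2 added without combination replicate 1. Members called higher in the combination against MI-503 went from 2 to 1 with RLE factors, no filter, DESeq2, the replicate block and an adjusted p under 0.01, and to between 1 and 2 without single libraries, CTSS being the call lost. Members called higher ranged from 6 to 8 for MI-503 against DMSO and from 5 to 6 for the combination against DMSO. Replicate numbers gave no clear pairing of the libraries. Deviations of same-numbered libraries correlated at -0.147 to 0.184, and those of unlike numbers at -0.197 to 0.175. Of 11 libraries, 5 correlated best with their own number, and whether this is a weak pairing was not tested. With the replicate block the list genes called, CD80 included, were 27, 33 and 26, against 26, 32 and 27 without it. Few counts limit LGMN, CD86 and CD80. Cells with PR-957 alone were not analysed here. The alignment filter was not stated, and its effect was not tested.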
